A study of Mus musculus with 10 samples.

Results

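Protein phosphatase genes were examined in the tibialis anterior, a fast muscle at the front of the shin, of mice with induced expression of a FoxP1 transgene. Members were all protein-coding genes of the deposited table whose symbol starts with Ppp, Ppm1, Dusp, Ptpn, Ptpr or Ptp4, with Ppp1r3a left out. The rule found 40 genes among the 3480 listed, of 152 that carry such a symbol in the GENCODE annotation of the same genome build (GRCm38, the same assembly as mm10). They comprise 24 genes for serine/threonine phosphatase subunits and regulators, 10 dual-specificity and 6 tyrosine phosphatase genes. Classes were assigned by symbol alone, and the dual-specificity class takes in Ptp4a3 with the Dusp genes. FoxP1iSkmTg mice (n = 5) carry FoxP1flSTOP, a transgene kept silent by a floxed stop cassette, together with HSA-MerCreMer, a tamoxifen-activated Cre recombinase under the human skeletal alpha-actin promoter, which is active in muscle fibres. Control mice (n = 5) carry FoxP1flSTOP without Cre. Tamoxifen was given to all 10 mice at 80 mg/kg on 4 days, and the methods describe females aged 13 to 18 weeks. MerCreMer without the transgene was not among the groups, so effects of Foxp1 and of activated Cre cannot be told apart for any gene.

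Protein phosphatases remove the phosphate groups that kinases add. Serine/threonine phosphatases combine a small number of catalytic subunits with many regulatory subunits that set where the enzyme acts. Calcineurin, the calcium-dependent one, dephosphorylates NFAT transcription factors, a pathway known in muscle for slow-fibre gene expression. Dual-specificity phosphatases act on phosphotyrosine as well as phosphoserine and phosphothreonine, and a subset of them, the MAP kinase phosphatases, switches off MAP kinases. Classical tyrosine phosphatases exist as receptor-like proteins in the plasma membrane and as intracellular enzymes, and act on receptors, kinases and adaptors.

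The table was a selection. It lists genes whose unadjusted p was under 0.05 when the authors compared the same mice, so presence in it already reflects a difference between the groups. Phosphatase genes were listed in 26.3% of cases, against 13.9% for all protein-coding genes, where 3043 of 21951 were listed. By class the listed share was 27.9% of 86 serine/threonine, 35.7% of 28 dual-specificity and 15.8% of 38 tyrosine phosphatase genes. These totals count every annotated gene, while 15846 genes of all types entered the authors' adjustment. The shares therefore mix detection in muscle with a difference between the groups, and these were not separated. The other phosphatase genes were not analysed here. Listed counts summed to 6620970 to 8737660 per mouse, and the correlation of log counts between mice of a group was 0.9733 to 0.9922 in FoxP1iSkmTg and 0.9871 to 0.9917 in Control mice.

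Foxp1, the forkhead transcription factor gene that the transgene encodes, was measured first. Replicates 1 to 5 stood at 5352, 2163, 5813, 1423 and 1289 normalized counts in FoxP1iSkmTg muscle, against 371, 232, 389.9, 270.3 and 259.9 in Control muscle. Normalized counts are reads divided by the authors' size factor of that mouse, and the values of all genes below follow the same order of replicates, which are only names. The groups did not overlap, and replicates 1 and 3 of FoxP1iSkmTg were far above the other 3. The log2 fold change (FoxP1iSkmTg over Control throughout) was 3.42 ± 0.44 (SE), and the adjusted p from edgeR's quasi-likelihood test was 0.000613.

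Of the 40 phosphatase genes, 39 passed the filter on low counts and were tested, and 20 had an adjusted p under 0.05. In FoxP1iSkmTg muscle 7 of them rose and 13 fell. These 51.3% called stand beside 40.4% of all 3115 tested genes, of which 22.2% were higher and 18.2% were lower. Since genes entered the table through the same contrast, both shares carry that selection. The median log2 fold change was 0.16 over the phosphatase genes and 0.16 over all tested genes, and the median size of the change was 0.39 in both. The signed median of the phosphatase genes rests on 20 positive and 19 negative values, and over the 35 phosphatase genes with a mean of at least 100 normalized counts it was -0.13, with 17 positive and 18 negative. That of all tested genes rests on 1563 positive and 1552 negative values, so its sign is not firm either. The 2 groups of mice did not overlap for 20 of the 39 genes (51.3%), 8 higher and 12 lower, against 42.2% of all tested genes. Without Control replicate 2 the count past the threshold was 11, with 2 higher and 9 lower. The number of higher genes was 3 without FoxP1iSkmTg replicate 1, and 4 without FoxP1iSkmTg replicate 3, Control replicate 1 or Control replicate 4.

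Among genes past the threshold the classes differed in the mix of directions, which was not tested. Over all tested genes of a class the signs were near even. Serine/threonine genes had 12 positive and 11 negative log2 fold changes, dual-specificity genes 5 and 5, and tyrosine genes 3 and 3. Of all 3115 tested genes, 22.2% were called higher and 18.2% lower. Past the threshold, 2 of 23 tested serine/threonine genes rose and 9 fell, and the log2 fold changes of the class lay between -0.88 and 0.58. Of 10 dual-specificity genes 3 rose and 2 fell, with a range of -1.10 to 1.56. Of 6 tyrosine phosphatase genes 2 rose and 2 fell, with a range of -2.53 to 0.76. The median size of the log2 fold change was 0.28, 0.48 and 0.55 in these 3 classes. Among the 20 genes past the threshold, 8 changed by at least 1.5-fold, and of these Ppp1r27 was the one serine/threonine member. This limit cut close to 2 genes. Ppp1r14c fell just short of it at a log2 fold change of -0.58, and was at -0.61 in DESeq2 and with the authors' size factors. Dusp16, at 0.59, was just past it, and was at 0.56 in both of these. The class counts also moved with single mice. Without Control replicate 2, 6 serine/threonine and 2 tyrosine genes passed. The dual-specificity count was 3 without FoxP1iSkmTg replicate 1, 3 or 4, or Control replicate 1, 2 or 4.

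**Figure D1:**
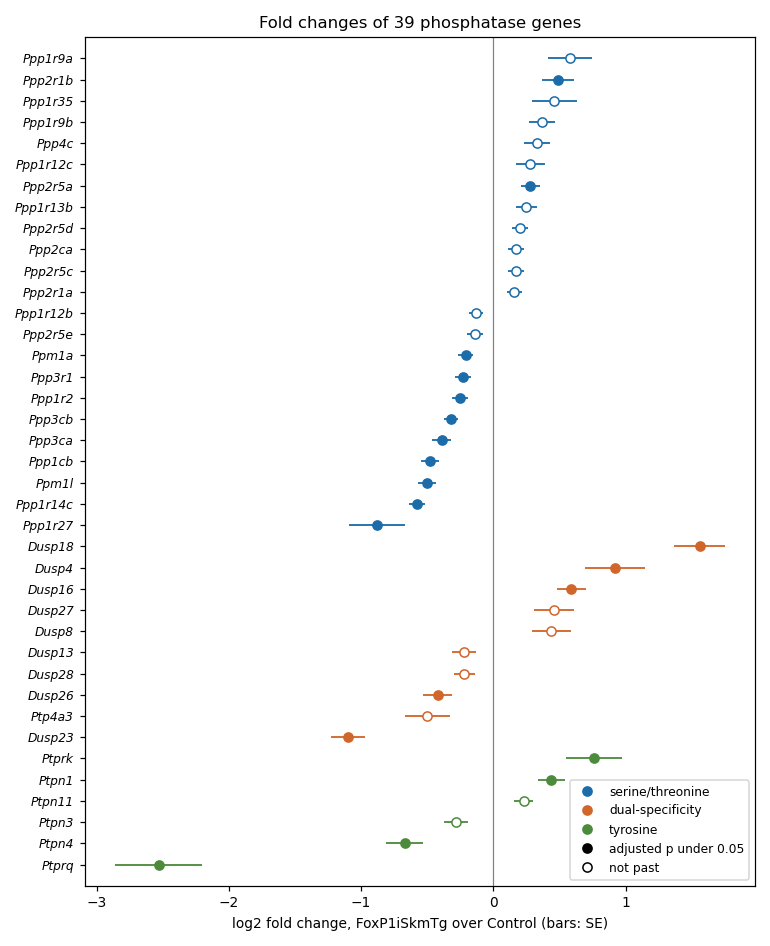
Log2 fold change of FoxP1iSkmTg over Control for the 39 tested phosphatase genes (x axis), with bars for the SE, coloured by class, filled where the adjusted p was under 0.05 and open otherwise. Serine/threonine genes lie between -0.88 and 0.58, while Dusp18 at 1.56 and Ptprq at -2.53 are the extremes of the other classes.

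All 3 listed calcineurin genes fell in FoxP1iSkmTg muscle. Ppp3ca and Ppp3cb encode the alpha and beta catalytic subunits and Ppp3r1 the calcium-binding regulatory subunit. Of the 5 annotated calcineurin genes, Ppp3cc and Ppp3r2 were not listed. For 2 of the 3 genes the window around the transcription start (250 bases before to 50 after it) was at hand from RefSeq. Both are shown because these genes encode partner subunits and fell together, with the GC box (GGGCGG, or CCGCCC on the other strand) in capitals. The Ppp3cb window (chr14:20546524-20546823, minus strand, GRCm38.p6, 51% G and C) holds 2 GC boxes, and the Ppp3r1 window (chr11:17159048-17159347, plus strand, 70.7% G and C) holds 4, of which neighbours in the first run share a base.
Ppp3cb: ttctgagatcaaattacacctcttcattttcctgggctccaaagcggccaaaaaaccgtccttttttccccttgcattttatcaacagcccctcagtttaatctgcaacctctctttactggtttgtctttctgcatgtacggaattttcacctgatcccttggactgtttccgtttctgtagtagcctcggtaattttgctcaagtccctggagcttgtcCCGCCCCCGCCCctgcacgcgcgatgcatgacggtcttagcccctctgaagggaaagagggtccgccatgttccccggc
Ppp3r1: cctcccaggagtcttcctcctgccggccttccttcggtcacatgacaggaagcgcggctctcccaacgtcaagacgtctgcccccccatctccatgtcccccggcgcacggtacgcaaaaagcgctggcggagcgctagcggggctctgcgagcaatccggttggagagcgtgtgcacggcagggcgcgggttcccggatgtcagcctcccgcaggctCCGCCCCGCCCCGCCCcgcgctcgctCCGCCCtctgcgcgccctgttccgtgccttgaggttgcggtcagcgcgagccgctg

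Ppp3cb (chromosome 14, 20499364 to 20546573) stood at 4530, 5074, 5050, 4941 and 4959 normalized counts in FoxP1iSkmTg muscle, against 6076, 6049, 6511, 6480 and 6088 in Control muscle. Every FoxP1iSkmTg mouse was below every Control mouse, and within each group the mice lay close together. Ppp3cb was 1.25-fold lower (log2 fold change -0.32 ± 0.05 (SE), edgeR adjusted p = 0.00225). Ppp3ca (chromosome 3, 136670124 to 136937727) had 3601, 4212, 4034, 4275 and 4364 normalized counts in FoxP1iSkmTg muscle, against 5195, 5076, 5782, 6095 and 5097 in Control muscle, a log2 fold change of -0.39 ± 0.07 (edgeR adjusted p = 0.0063). For Ppp3r1 (chromosome 11, 17159263 to 17200375) the values were 2320, 2465, 2467, 2170 and 2252 in FoxP1iSkmTg muscle, against 2675, 2818, 2921, 2905 and 2616 in Control muscle. These groups were also apart, and the log2 fold change was -0.23 ± 0.06 (edgeR adjusted p = 0.0253). For Ppp3r1 the call was lost without FoxP1iSkmTg replicate 5 (0.056) and without Control replicate 2 (0.0519), 3 (0.0564) or 4 (0.0625), and 14.3% of its exonic bases are shared with Wdr92, a gene on the same strand that was not analysed here.

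**Figure D2:**
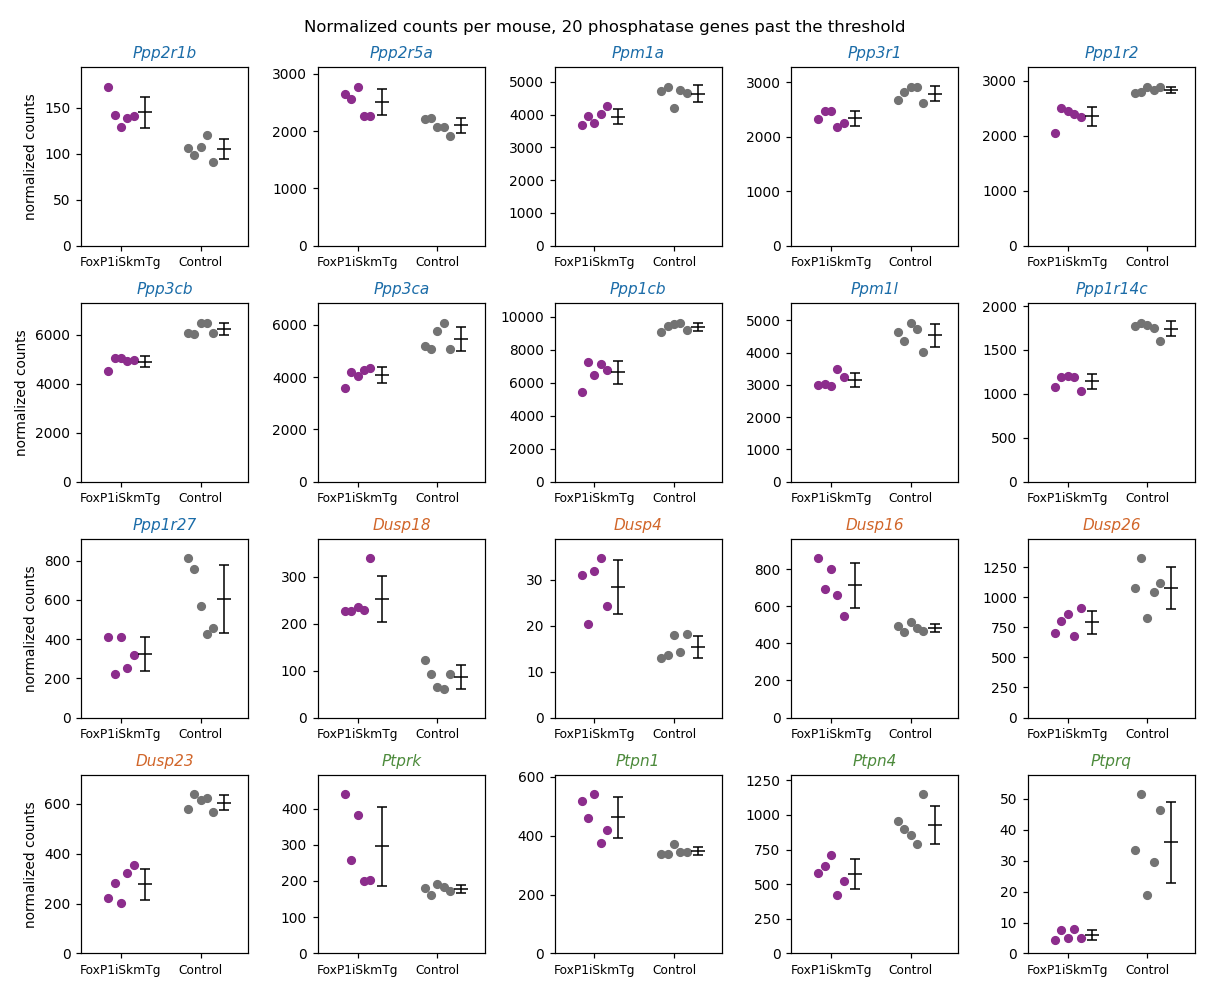
Normalized counts of the 20 phosphatase genes with an adjusted p under 0.05, 1 panel a gene, with 1 point a mouse (FoxP1iSkmTg left, Control right) and the mean with SD beside the points; the y axes start at 0. The groups overlap for Dusp26 and Ppm1a and are apart for the other 18 genes.

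In the protein phosphatase 1 (PP1) system, the catalytic subunit and both listed inhibitors fell. Ppp1cb, the beta catalytic subunit, which forms myosin phosphatase with a myosin-targeting subunit, had 5452, 7275, 6491, 7114 and 6778 normalized counts in FoxP1iSkmTg muscle, against 9054, 9467, 9538, 9652 and 9176 in Control muscle. All FoxP1iSkmTg mice were lower, with replicate 1 the lowest, and the log2 fold change was -0.48 ± 0.07 (SE; edgeR adjusted p = 0.00162). Ppp1ca and Ppp1cc, the other PP1 catalytic genes, were not listed. Ppp1r14c (chromosome 10, 3366057 to 3464975) encodes an inhibitor of PP1 of the CPI-17 family. It had 1080, 1190, 1207, 1196 and 1029 normalized counts in FoxP1iSkmTg muscle, against 1768, 1812, 1781, 1746 and 1600 in Control muscle. With a log2 fold change of -0.58 ± 0.06 its adjusted p was the smallest of the 39 genes (edgeR, 0.000148). Ppp1r2, or inhibitor 2, had 2055, 2511, 2441, 2402 and 2330 normalized counts in FoxP1iSkmTg muscle, against 2766, 2798, 2892, 2829 and 2887 in Control muscle. That difference was 1.19-fold, lower in all FoxP1iSkmTg mice (log2 fold change -0.25 ± 0.06, edgeR adjusted p = 0.0211). A long noncoding RNA, Gm26752, shares 29.2% of the exonic bases of Ppp1r14c on the opposite strand, and Gm43312 shares 17.5% of those of Ppp1cb on the same strand. Neither of these noncoding genes was analysed here.

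Targeting and other regulatory subunits of PP1 passed for 1 of 7 tested genes. Ppp1r27, a small ankyrin-repeat regulator of PP1 (chromosome 11, 120549979 to 120551132), had 409, 223, 408, 249.8 and 317 normalized counts in FoxP1iSkmTg muscle, against 810.5, 755, 568, 425 and 456 in Control muscle. The groups were apart by a narrow gap, at 409 and 425, and Control replicates 1 and 2 were far above the other Control mice. Its log2 fold change of -0.88 ± 0.21 (edgeR adjusted p = 0.0261) lost the call without FoxP1iSkmTg replicate 2 (0.0591) or 4 (0.0515), or Control replicate 1 (0.0663), 2 (0.0686) or 3 (0.0516). The spinophilin gene Ppp1r9b and its relative Ppp1r9a, scaffolds that bind PP1 and actin, were just outside the threshold, at log2 fold changes of 0.37 (edgeR adjusted p = 0.0509) and 0.58 (0.0527). The 2 myosin-targeting genes did not pass, and of these Ppp1r12c had the smaller p. It had 509, 467, 454, 423 and 424 normalized counts in FoxP1iSkmTg muscle, against 343, 324, 371, 406 and 469.7 in Control muscle, overlapping at 1 Control mouse (log2 fold change 0.28 ± 0.11, edgeR adjusted p = 0.171). Without that mouse, Control replicate 5, the adjusted p was 0.0438. None of the 6 glycogen-targeting genes covered by the rule was listed.

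Protein phosphatase 2A (PP2A) genes ran the other way where they passed. PP2A is a trimer of a scaffold, a catalytic and a regulatory subunit. Ppp2r1b, the beta scaffold, had 173, 142, 129, 139 and 141 normalized counts in FoxP1iSkmTg muscle, against 106, 98.2, 107, 120.4 and 91.3 in Control muscle. All FoxP1iSkmTg mice were higher, at a log2 fold change of 0.49 ± 0.12 (SE; edgeR adjusted p = 0.025). Sik2, a kinase gene on the opposite strand, shares 22.2% of the exonic bases of Ppp2r1b. It had 299, 248, 250.3, 252 and 290.2 normalized counts in FoxP1iSkmTg muscle, against 201, 162, 237, 229.8 and 213 in Control muscle (log2 fold change 0.39, edgeR adjusted p = 0.0656), and the strand setting of the read counting is not stated. The call for Ppp2r1b was lost without FoxP1iSkmTg replicate 1 (0.0588) or Control replicate 1 (0.0568), 2 (0.0667) or 5 (0.0635).

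Ppp2r5a, a regulatory subunit of the B56 family, had 2654, 2561, 2777, 2266 and 2267 normalized counts in FoxP1iSkmTg muscle, against 2218, 2230, 2068, 2078 and 1910 in Control muscle. The nearest mice of the 2 groups were 2266 and 2230, so the groups were apart by little. Ppp2r5a had a log2 fold change of 0.28 ± 0.07 (edgeR adjusted p = 0.0278). This call did not hold in 7 of the 10 fits that left out 1 mouse, those without FoxP1iSkmTg replicate 1, 2 or 3 and without Control replicate 2, 3, 4 or 5 (0.0503 to 0.0709), nor with the authors' size factors (0.0596). The other 5 listed PP2A genes, Ppp2ca, Ppp2r1a, Ppp2r5c, Ppp2r5d and Ppp2r5e, had log2 fold changes of -0.14 to 0.20 and did not pass. Ppp4c, the catalytic subunit of protein phosphatase 4, had 287, 273, 279, 247 and 234 normalized counts in FoxP1iSkmTg muscle, against 238, 242, 214, 176 and 199 in Control muscle, where the groups overlap (log2 fold change 0.33 ± 0.10, edgeR adjusted p = 0.0748).

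Metal-dependent phosphatases of the PPM family work as single subunits, and the 2 tested members fell. Ppm1l, an enzyme of the endoplasmic reticulum membrane, had 2983, 3030, 2969, 3502 and 3252 normalized counts in FoxP1iSkmTg muscle, against 4646, 4367, 4935, 4747 and 4012 in Control muscle. All FoxP1iSkmTg mice were lower, at a log2 fold change of -0.50 ± 0.07 (edgeR adjusted p = 0.00114). Ppm1a, which acts on SMAD proteins and stress kinases, had 3688, 3960, 3731, 4020 and 4253 normalized counts in FoxP1iSkmTg muscle, against 4734, 4857, 4195, 4763 and 4670 in Control muscle. The groups overlap through 1 Control mouse, replicate 3. Its log2 fold change of -0.21 ± 0.06 (edgeR adjusted p = 0.0409) lost the call in 7 of the 10 fits that left out 1 mouse, all but those without FoxP1iSkmTg replicate 4 or 5 or Control replicate 3, with an adjusted p of up to 0.102. Ppm1n was removed by the filter on low counts. It had 12.6, 15, 7.21, 7.25 and 11.1 normalized counts in FoxP1iSkmTg muscle, against 0.925, 1.14, 0, 0 and 2.01 in Control muscle.

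Dual-specificity genes held the largest rise and the second largest fall of the 39 tested genes. Both genes are atypical members, small enzymes without the MAP kinase-binding domain. Dusp18 (chromosome 11, 3895240 to 3901296) rose, and Dusp23 (chromosome 1, 172630764 to 172632962) fell. Their RefSeq start windows are shown as the pair with the largest opposite changes in this class (GRCm38.p6, 5′ to 3′; chr11:3894990-3895289, plus strand, 57.3% G and C, and chr1:172632925-172633224, minus strand, 61.3% G and C). Capitals mark GC boxes and CCAAT boxes (CCAAT, or ATTGG on the other strand). Dusp18 has 1 GC box, and Dusp23 has 1 GC box and 2 CCAAT boxes.
Dusp18: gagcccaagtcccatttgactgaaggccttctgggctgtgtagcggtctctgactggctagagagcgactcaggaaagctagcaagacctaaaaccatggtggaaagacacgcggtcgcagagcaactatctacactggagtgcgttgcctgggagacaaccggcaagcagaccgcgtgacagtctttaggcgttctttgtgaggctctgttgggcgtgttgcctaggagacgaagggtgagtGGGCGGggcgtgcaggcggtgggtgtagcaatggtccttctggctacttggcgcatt
Dusp23: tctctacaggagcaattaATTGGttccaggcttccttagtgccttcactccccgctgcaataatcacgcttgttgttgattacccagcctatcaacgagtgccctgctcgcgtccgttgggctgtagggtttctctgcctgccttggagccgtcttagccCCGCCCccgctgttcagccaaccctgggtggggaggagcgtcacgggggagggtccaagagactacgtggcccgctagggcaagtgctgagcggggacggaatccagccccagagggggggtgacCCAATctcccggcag

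Dusp18 had 228, 228, 236, 229.6 and 339 normalized counts in FoxP1iSkmTg muscle, against 123, 92.5, 64.3, 61.3 and 92.3 in Control muscle. Every FoxP1iSkmTg mouse was well above the highest Control mouse, with 4 of them nearly equal and replicate 5 higher. The rise was 2.95-fold (log2 fold change 1.56 ± 0.19 (SE), edgeR adjusted p = 0.000445). Dusp23 had 223, 281, 203, 321 and 355 normalized counts in FoxP1iSkmTg muscle, against 578, 638, 615, 625 and 568 in Control muscle. The gap between the groups was wider than the spread within either (log2 fold change -1.10 ± 0.13, edgeR adjusted p = 0.000444, 2.15-fold lower). Dusp26, which is expressed in brain and muscle, had 705, 799.9, 860.2, 678 and 908 normalized counts in FoxP1iSkmTg muscle, against 1078, 1321, 830.4, 1045 and 1113 in Control muscle. Control replicate 3 lay within the FoxP1iSkmTg range. Its log2 fold change of -0.42 ± 0.11 (edgeR adjusted p = 0.04) kept the call among the fits that left out 1 mouse only without FoxP1iSkmTg replicate 5 or Control replicate 3, with an adjusted p of up to 0.0944 in the other 8. The other 3 atypical members, Dusp13, Dusp27 and Dusp28, had log2 fold changes of -0.22 to 0.46 and did not pass.

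Among MAP kinase phosphatases, 3 of 10 were listed, and 2 rose. Dusp16, which prefers the stress kinases JNK and p38, had 857, 693, 802, 662 and 548 normalized counts in FoxP1iSkmTg muscle, against 490.4, 459, 513, 483 and 466 in Control muscle. The Control mice were tightly grouped and all below the lowest FoxP1iSkmTg mouse, at a log2 fold change of 0.59 ± 0.11 (edgeR adjusted p = 0.00641). Dusp4, a nuclear MAP kinase phosphatase, was scarce, with 31.1, 20.3, 31.9, 34.6 and 24.2 normalized counts in FoxP1iSkmTg muscle, against 13, 13.7, 17.9, 14.2 and 18.1 in Control muscle. The lowest FoxP1iSkmTg mouse, at 20.3, was just above the highest Control mouse, at 18.1. A log2 fold change of 0.92 ± 0.23 (edgeR adjusted p = 0.0301) lost the call without FoxP1iSkmTg replicate 1, 3 or 4 or Control replicate 1, 2 or 4 (0.0652 to 0.082). Dusp8, the remaining listed member, had a log2 fold change of 0.44 (edgeR adjusted p = 0.115). Dusp1, Dusp6 and Dusp10 were among the 7 that were not listed.

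Ptp4a3, or PRL-3, had the highest level per length of all 40 genes and was the one listed member of the PRL family of membrane-anchored phosphatases. It had 7687, 12786, 9725, 15068 and 15594 normalized counts in FoxP1iSkmTg muscle, against 16499, 16258, 15202, 18126 and 21156 in Control muscle. Replicates 1 and 3 of FoxP1iSkmTg were far below the others of that group, of which replicate 5 lay above the lowest Control mouse. At -0.50 ± 0.17 the log2 fold change did not pass (edgeR adjusted p = 0.116). It passed in DESeq2 (0.0343), and its adjusted p ran from 0.0227 to 0.265 over the alternatives run.

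Tyrosine phosphatase genes split evenly. Ptpn1 encodes PTP1B, which dephosphorylates the insulin receptor. It had 517, 459, 539.8, 374 and 418 normalized counts in FoxP1iSkmTg muscle, against 339, 336, 369.9, 345 and 344 in Control muscle. The groups touched closely, at 374 and 369.9, and the log2 fold change was 0.44 ± 0.10 (SE; edgeR adjusted p = 0.0184, and 0.0523 without Control replicate 2). Ptpn4, an intracellular enzyme with FERM and PDZ domains, had 584, 629.9, 714, 423 and 525 normalized counts in FoxP1iSkmTg muscle, against 954, 901, 856, 787 and 1148 in Control muscle. All FoxP1iSkmTg mice were lower (log2 fold change -0.67 ± 0.14, edgeR adjusted p = 0.0103). Ptpn11, which encodes SHP2, and Ptpn3, a relative of Ptpn4 with the same domains, did not pass, at log2 fold changes of 0.23 (edgeR adjusted p = 0.0623) and -0.28 (0.0658).

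Of 21 receptor-type genes, 2 were listed, and they changed in opposite directions. Ptprk, whose product binds itself on neighbouring cells, had 439, 257, 381, 201 and 202 normalized counts in FoxP1iSkmTg muscle, against 180.4, 161, 191, 184 and 172 in Control muscle. Replicates 1 and 3 of FoxP1iSkmTg were high, and replicates 4 and 5 were just above the highest Control mouse. Ptprk, with a log2 fold change of 0.76 ± 0.21 (edgeR adjusted p = 0.047), passed in 2 of the 10 fits that left out 1 mouse, without FoxP1iSkmTg replicate 4 or 5, and the adjusted p reached 0.111 in the others and 0.0542 with the authors' size factors. Ptprq, known in the hair cells of the inner ear and for activity on phosphatidylinositols, had 4.21, 7.49, 5.15, 8.06 and 5.04 normalized counts in FoxP1iSkmTg muscle, against 33.3, 51.4, 19.0, 29.5 and 46.2 in Control muscle. The level was low in both groups, with 5 to 46 reads per mouse, and the groups were far apart. It had the largest fall of the 39 genes (log2 fold change -2.53 ± 0.33, edgeR adjusted p = 0.000728, 5.76-fold lower). Ptprc, the leukocyte antigen CD45, was not listed.

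Per length, on the FPKM scale, levels spanned more than 3 orders of magnitude. Ptp4a3 was highest, with a mean of 73.6 ± 20.6 FPKM in FoxP1iSkmTg and 106 ± 14.1 FPKM in Control muscle (SD, n = 5 each). Next in Control muscle came Ppp3r1 and Ppp1cb, at 40.9 ± 2.29 and 34.3 ± 3.71 FPKM in FoxP1iSkmTg muscle, against 48.8 ± 2.40 and 48.6 ± 1.32 FPKM in Control muscle, where the 2 genes did not differ beyond their spread. Of the catalytic calcineurin genes, Ppp3cb was at 31.5 ± 1.39 FPKM in FoxP1iSkmTg and 40.1 ± 1.52 FPKM in Control muscle, and Ppp3ca at 23.2 ± 1.71 FPKM in FoxP1iSkmTg and 30.9 ± 2.64 FPKM in Control muscle. Among the 7 genes that rose, the lowest level was that of Dusp4, with 0.587 ± 0.123 FPKM in FoxP1iSkmTg and 0.317 ± 0.0502 FPKM in Control muscle. Dusp18 averaged 3.07 ± 0.594 FPKM in FoxP1iSkmTg and 1.06 ± 0.307 FPKM in Control muscle. The highest of the 7 was Ppp2r5a, with 14.7 ± 1.36 FPKM in FoxP1iSkmTg and 12.4 ± 0.767 FPKM in Control muscle.

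**Figure D3:**
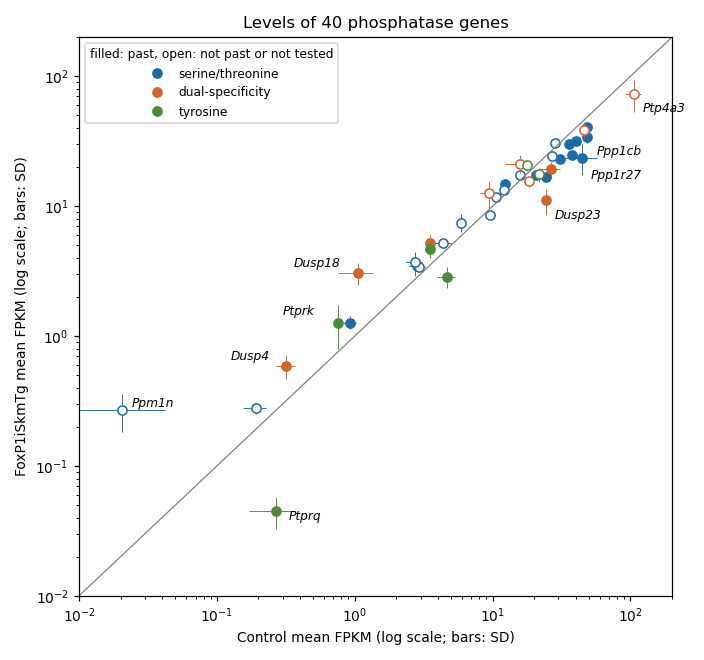
Mean FPKM of the 40 phosphatase genes in FoxP1iSkmTg (y axis) against Control muscle (x axis), both on log scales with SD bars (n = 5 each), coloured by class and filled where the adjusted p was under 0.05; the line marks equal levels, and the bar of Ppm1n runs to the edge because its SD exceeds its Control mean of 0.0206. Ptp4a3 is at the top, and Dusp18, Ptprk and Dusp4 lie above the line at low levels.

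Spread within the groups was read from the normalized counts. The median coefficient of variation of the tested phosphatase genes was 10.1% in FoxP1iSkmTg and 7.09% in Control mice, beside 12.1% in FoxP1iSkmTg and 10.3% in Control mice over all tested genes. For Ptprk it was 36.7% in FoxP1iSkmTg and 6.5% in Control mice, for Dusp16 17.0% in FoxP1iSkmTg and 4.46% in Control mice, and for Ptpn1 14.8% in FoxP1iSkmTg and 3.92% in Control mice. In these 3 genes FoxP1iSkmTg replicates 1 and 3, which had the highest Foxp1, were the highest mice. Over the 20 genes past the threshold, these 2 mice were the farthest from Control for 9 (45%). Over all 1258 genes past the threshold except Foxp1, which include these 20, they were so for 489 (38.9%).

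Partners of these enzymes were read from the same fit. Each list below stands beside the shares over all tested genes, 40.4% called, 22.2% higher and 18.2% lower. No list was tested as a set. In the calcineurin pathway 7 of 20 genes were listed and tested, and 3 passed the threshold, of which 2 rose. Rcan2, which encodes an inhibitor of calcineurin, rose (0.42 ± 0.12, edgeR adjusted p = 0.0432), as did Mef2d, a muscle transcription factor gene (0.29 ± 0.08, edgeR adjusted p = 0.0365), each with overlapping groups.

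In the MAP kinase cascade, on which Dusp16 and Dusp4 act, 13 of 32 genes were listed and 12 tested, with 5 higher and 2 lower. Mapk14, the p38 alpha gene, had 2024, 1956, 2208, 1994 and 2025 normalized counts in FoxP1iSkmTg muscle, against 3010, 2857, 2894, 2855 and 2758 in Control muscle (log2 fold change -0.47 ± 0.05, edgeR adjusted p = 0.000186). Map2k6, which encodes a kinase that activates p38, rose (0.60 ± 0.10, edgeR adjusted p = 0.00333). Map3k4 (0.36 ± 0.05, edgeR adjusted p = 0.00145) and Mapkapk2, a kinase downstream of p38 (0.29 ± 0.05, edgeR adjusted p = 0.00758), rose as well.

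Of 13 kinases and targets of the eIF2 alpha pathway, whose phosphatase is PP1 with a regulatory subunit, 6 were tested, and Atf3 rose (1.71 ± 0.30, edgeR adjusted p = 0.00507) while Chac1 fell (-1.48 ± 0.28, edgeR adjusted p = 0.00737). Of 30 genes for growth factor receptors, receptor and intracellular tyrosine kinases and adaptors, 6 were tested. Jak1 (0.46 ± 0.07, edgeR adjusted p = 0.00281) and the adaptor gene Grb2 (0.37 ± 0.07, edgeR adjusted p = 0.00643) rose, and Fgfr1 fell (-0.77 ± 0.21, edgeR adjusted p = 0.0386). The median log2 fold change was 0.26 for the MAP kinase list, -0.17 for the calcineurin list and -0.14 for the eIF2 alpha list. It was 0.31 for the list of receptors, tyrosine kinases and adaptors, beside 0.16 over all tested genes. The last value rests on near-equal numbers of positive and negative genes.

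**Figure D4:**
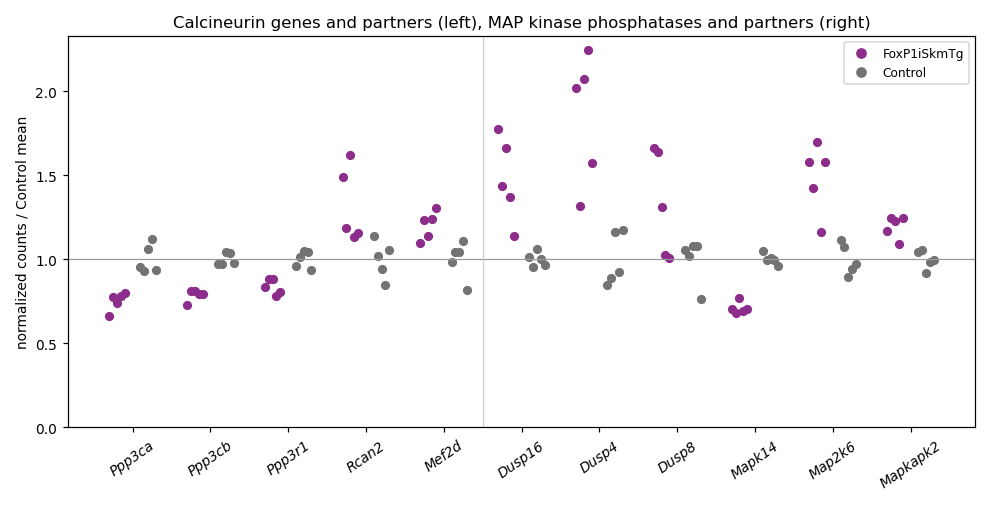
Normalized counts per mouse divided by the Control mean of each gene (y axis, from 0), with FoxP1iSkmTg mice left of Control mice for each gene, for calcineurin genes and partners on the left and MAP kinase phosphatases and partners on the right. The calcineurin genes and Mapk14 lie below 1 in all 5 FoxP1iSkmTg mice, and Dusp16, Dusp4 and Map2k6 above 1.

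Markers of cell types were read beside these results. Over all tested genes, 22.2% were called higher and 18.2% lower. Of 20 skeletal muscle fibre markers, 9 were listed and tested, and 6 fell, among them Mylpf (-0.71 ± 0.10, edgeR adjusted p = 0.000938), Neb (-0.45 ± 0.06, 0.00133), Acta1 (-0.60 ± 0.09, 0.00184) and Pvalb (-0.47 ± 0.10, 0.0106). The summed level of the fibre markers was 1245360 to 1457080 normalized counts in FoxP1iSkmTg and 1702966 to 2007710 in Control mice. It moved in the direction of the calcineurin genes, Ppp1cb, the listed PP1 inhibitors and the tested PPM genes. Its part in their change was not tested. In bulk muscle, fewer cells of a type and less RNA per cell cannot be told apart. Of 28 leukocyte markers 4 were listed and 3 tested, and these did not pass by edgeR (unadjusted p under 0.05 in all 3), with a summed level of 52.4 to 96.8 in FoxP1iSkmTg and 53.7 to 73.3 in Control mice. The sum joins opposite changes. Log2 fold changes were 1.07 for Cd14, 0.94 for Cd3e and -0.94 for Tyrobp. The untested S100a9 averaged 3.45 normalized counts in FoxP1iSkmTg and 13.5 in Control mice. Of 11 satellite cell markers 2 were listed, and Itga7, which muscle fibres also express, rose (0.71 ± 0.07, edgeR adjusted p = 0.000141). Of 9 adipocyte markers 2 were listed, and Car3, also a muscle gene, fell (-1.35 ± 0.20, edgeR adjusted p = 0.00147). The other, Plin1, went the opposite way with overlapping groups and did not pass (edgeR adjusted p = 0.224). Plin1 averaged 33.1 normalized counts in FoxP1iSkmTg and 17.1 in Control mice. Of 12 fibro-adipogenic markers 1 was listed and did not pass, and no endothelial, mural, Schwann or erythroid marker was listed.

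Start windows were at hand for 33 of the 40 phosphatase genes and 15 of the 20 past the threshold. Motifs were counted on both strands. A phosphatase gene counted where any of its windows held the motif, while the share beside it is that of single windows among all 32851 mouse windows of the same length. Those windows had a median of 52.7% G and C and were not limited to genes detected in muscle. The shares were not matched for base content, and no difference between them was tested. The forkhead motif TGTTTAC was found for 0 of 33 genes (3.65% of all windows), and the form TGTTTGC for Ppp1r12b (5.07% of all). The GC box was found for 25 of 33 genes and for 12 of the 15 past the threshold (35.7% of all). CCAAT was found for 15 of 33 and for 5 of 15 (37.4% of all), and TATAAA for Ppp1r2 and Ppp1r27 (13.6% of all). The E-box CACGTG was found for Ppp1r9a (7.15% of all), and the cAMP response element TGACGTCA for 5 of 33, of which Ppm1a passed (1.79% of all). These counts describe letters in 300 bases and say nothing of factor binding.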

How the data were processed

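Poly-A RNA of tibialis anterior muscle was sequenced in 5 FoxP1iSkmTg and 5 Control mice. The submitters' notes name HISAT2 2.0.5, DESeq2 1.20.0 and mm10, the methods STAR and HTSeq, so the aligner is not settled, and the strand setting of counting is not stated. The authors deposited whole-number counts per gene and mouse, a normalized signal (counts over a DESeq2 size factor), FPKM, gene length, and their own comparison (log2 fold change with raw and adjusted p-value). These comparison columns served only to establish that the table lists genes with an unadjusted p under 0.05 (3480 genes, 15846 in the adjustment). Library totals recovered from FPKM (15510420 to 21989419) followed the size factors within -0.166% to 0.154% and may be scaled values, so depth is unknown.

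Counts of the whole table were fitted with edgeR 4.0.16 in R 4.3.3 (glmQLFit, glmQLFTest, group alone), with TMM factors (recalculated on the recovered totals) and filterByExpr at a minimum count of 10, leaving 3115 genes. Tests were two-sided, with Benjamini-Hochberg adjustment over 15846 genes and a threshold of 0.05. The SE is the log2 fold change over the square root of F. The fit was tested on simulated data without selection by p and with adjustment over the tested genes alone. That test does not cover a table selected by p. Named are Foxp1, each member past the threshold with a mean of at least 20 normalized counts, the member with the smallest p of each role without one, and up to 4 genes per other list. Members that did not pass are otherwise given by range, except Ppp1r9a, Ppp1r9b, Dusp8, Ptpn3, Ptpn11, Ppm1n and Sik2, named after their values were seen. The markers Plin1, Cd14, Cd3e, Tyrobp and S100a9 were likewise named after their values were seen. A gene covered by this rule is not reported here. Alternatives were DESeq2 1.42.0, other scaling, other filters, other adjustment, a replicate block and leaving out each mouse. Members and lists were chosen with earlier results of these data known. Nothing in the labels says more of the mice than replicate numbers, so p-values measure the spread between these samples.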

Additional observations from a re-analysis of the deposited data

Results flagged for a closer look

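In each group of 5 mice, the highest and the lowest value were compared with the nearest other mouse for the 24 genes named with values and tests. Of 48 groups checked, 4 held a mouse standing apart by Dixon's criterion (gap over range above 0.71), where chance gives about 2.4. Dusp18 in FoxP1iSkmTg replicate 5 was at 339 normalized counts, with the next mouse at 236. Ppp3cb in FoxP1iSkmTg replicate 1 was lowest at 4530, with the next at 4941. Ptpn1 in Control replicate 3 was highest at 369.9, with the next at 345. Ppm1a in Control replicate 3 was lowest at 4195, with the next at 4670, and that mouse is the one that overlaps the FoxP1iSkmTg group.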

How the results depend on the processing

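Of the 20 phosphatase genes past the threshold, 10 passed in every alternative in which they were tested (Ppp1r14c, Dusp23, Dusp18, Ptprq, Ppm1l, Ppp1cb, Ppp3cb, Ppp3ca, Dusp16 and Ptpn4), and no named gene changed direction. Foxp1 passed in all 17, at log2 fold changes of 3.11 to 3.62. DESeq2 gave 10 higher and 16 lower phosphatase genes and 879 lower genes in all, the authors' size factors and the recovered totals alone 5 and 13 each, no filter 10 and 13. A minimum count of 50 gave 5 and 12, with Ptprq and Dusp4 no longer tested and 2 tyrosine genes past the threshold. Adjustment over the tested listed genes alone, which is lenient for genes selected by p, called all 39 (20 higher, 19 lower; 23 serine/threonine, 10 dual-specificity) and 1538 higher and 1261 lower genes in all. Leaving out 1 mouse gave 2 to 8 higher, 9 to 12 lower, 6 to 11 serine/threonine, 3 to 5 dual-specificity and 2 to 5 tyrosine phosphatase genes, and over all genes 451 to 702 higher and 431 to 597 lower. Mice of the same replicate number did not vary together (correlations of -0.0176 to 0.0345, 0 of 5 numbers with the best match), so the numbers do not pair the mice. With a replicate block 5 phosphatase genes were higher and 10 lower, 7 of them serine/threonine, and over all genes 480 were higher and 480 lower. Lost under the block were Ppp1r2 (0.0534), Ppp2r1b, Ppp3r1, Dusp4, Dusp26, Ppm1a and Ptprk (0.0575 to 0.0907). The authors' size factors shifted the median of all genes by -0.03 (log2). The main fit called 692 genes higher and 567 lower. With the authors' size factors 544 were higher and 617 lower, and with the recovered totals alone 541 and 621. DESeq2 gave 840 and 879, so which direction held more genes depended on the fit. The lowest counts were those of Ptprq, Dusp4 and the untested Ppm1n, and depth as a cause was not tested. The cause of the other changed calls was not tested.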
